A study of Mus musculus with 4 samples.

Results

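Lpl, Apoe, Plpp3, Pla1a and Slc27a3 are 5 genes of lipid handling, 5 of the 3891 complete gene rows in the table of a single cell study of the mouse small intestinal stroma. They were chosen by name, from earlier results on these same cells. Their levels across cell groups are therefore given as a description, with no test. The cells came from wild-type C57Bl/6 mice with no transgene, deletion or treatment in any group. The labels give them as male and 8 weeks of age, whereas the study's methods speak, for its experiments in general, of both sexes and ages of up to 12 weeks. Intestinal tissue was digested with Liberase TL and sorted for live cells that carried PDPN (gp38), a surface protein of fibroblasts, and lacked CD45, EpCAM and CD31. The sort thereby left out most blood, epithelial and endothelial cells. Of the 17630 cells in the table, 16891 were profiled in 2 droplet libraries (10X Genomics) and the others on 2 Smartseq2 plates. How many mice gave each library is not stated.

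Stromal cells of the villus lie between the epithelium, which takes up dietary fat and packs it into chylomicrons, and the blood and lymph capillaries that carry absorbed nutrients away. Lipoprotein lipase cuts the triglycerides of chylomicrons and other lipoproteins into fatty acids, and apolipoprotein E lets lipoprotein remnants bind receptors on cells that take them up. The remaining 3 act on other lipids. Plpp3 encodes a membrane phosphatase that dephosphorylates lysophosphatidic acid and sphingosine-1-phosphate, Pla1a a secreted phospholipase that cuts phosphatidylserine, and Slc27a3 a member of the fatty acid transport protein family that joins fatty acids to coenzyme A.

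Each droplet cell was put in 1 of 5 groups by gate genes with at least 1 UMI, a molecular tag that counts RNA molecules. Cells with Sox6 formed the subepithelial group (285 cells in 10X library 1 and 2699 in 10X library 2), which was also split by Wif1 and by Adamts18. Of the others, cells with 3 or more of Inmt, Penk, Vit and Scara5 formed the mesothelial-like group (331 and 1107 cells), and those with 3 or more of Chodl, Dner, Thbs2 and Ptn the Fibin type (100 and 697 cells). The rest were called crypt where Grem1 had a UMI (1021 and 4837 cells) and otherwise villus where Fgfr2 had one (549 and 3226 cells). The remaining 261 and 1778 cells had none of these genes in the needed number and stayed without a class.

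The groups were checked with marker lists that the gate did not use, drawn by the study from the cells analysed here, and so no independent evidence. In both libraries all 8 subepithelial markers, all 6 of the Fibin type, all 6 of the villus and 5 of 6 mesothelial-like markers were highest in their own group. Of the 6 crypt markers, 0 were highest in the crypt group and most were higher in the mesothelial-like group, so "crypt" here means only a cell with Grem1 that met no earlier gate. A median of 8757 and 6874 UMIs stood behind each cell of 10X library 1 and 10X library 2, and 7 barcodes occurred in both libraries. In the first 4 groups of the gate between 22.1% and 74.3% of a library's cells met the gate of more than 1 class. On the Smartseq2 plates 25.6% of the values lay below 0 and Fgfr2 was above 0 in 96.5% of the cells, and these are values corrected by the authors' integration. The gate could not be applied to them, and they were not used further.

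Lpl, on chromosome 8 of GRCm38 (68880491 to 68907448, plus strand), was the gene among the 5 that was highest in the villus group. Villus cells held a mean of 7.09 UMIs per 10,000 in 10X library 1 and 8.83 in 10X library 2. Subepithelial cells held 3.45 and 4.91, and mesothelial-like cells 3.33 and 4.88. Crypt cells held 2.41 and 3.13, and the Fibin type 0.896 and 1.29. Both libraries gave the villus group a value above that of the other 4 groups as gated, an order that did not hold over the mesothelial-like group in cells of a single class, and the subepithelial and mesothelial-like groups overlapped. The villus level was 2.95-fold and 2.82-fold the crypt level, a mean log2 difference of 1.53 ± 0.045 (SD, n = 2 libraries). It was 2.05-fold and 1.80-fold the subepithelial level and 7.91-fold and 6.84-fold that of the Fibin type. Among cells that met the gate of a single class only, the villus to crypt ratio was 4.74 in place of 2.88, and that of villus to Fibin type 12 in place of 7.36. In these cells the mesothelial-like level, there of cells with neither Grem1 nor Fgfr2, was 6.56-fold and 4.64-fold the crypt level, against 4.77-fold and 4.72-fold for villus. Villus was thus below the mesothelial-like group in 10X library 1 and close to it in 10X library 2.

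Villus cells were 21.6% and 22.5% of the cells of the 2 libraries and held 39.9% and 36.4% of their Lpl UMIs. A UMI of Lpl was found in 81.4% and 81.3% of villus cells, at a median of 8237 and 6290 UMIs per cell. With each cell thinned to 2000 UMIs the share was 58.3% and 60.8% in the villus group, 42.8% and 51.7% in the subepithelial group and 26.3% and 32.5% in the crypt group. These shares had the same order as the levels. Unclassed cells, those in none of the 5 groups, with markers of other types served as the reference for free RNA, in 10X library 2, where they were most numerous. Of 47 such cells with 3 or more enteric glia markers 4.26% had a UMI of Lpl (median 2870 UMIs), and of 49 with 3 or more immune markers 10.2% (median 4309 UMIs). After thinning these shares were 3.57% (exact 95% interval 0.0904% to 18.3%) and 4.76% (0.582% to 16.2%). The Fibin type, with 14% and 16.9% after thinning, lay within the wider of these intervals, and the other groups lay above both. Macrophages are known to make lipoprotein lipase, and cells with 3 or more macrophage markers held 3.81 and 4.33 Lpl UMIs per 10,000 (14 and 52 cells).

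**Figure D1:**
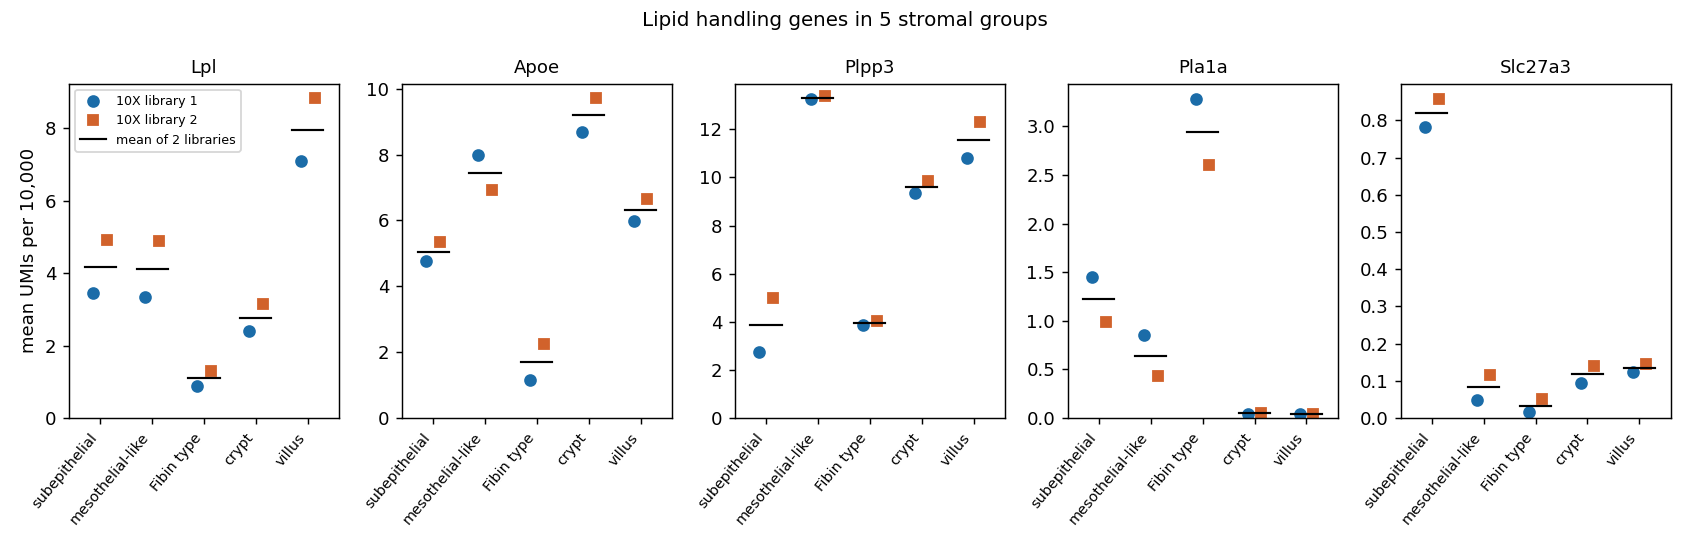
Mean UMIs per 10,000 of the 5 genes (vertical axis, linear and starting at 0) in the 5 groups of 10X cells (horizontal axis), with 1 point per library and a line at their mean. Lpl peaks in the villus group at 7.09 and 8.83, Apoe in the crypt group, Plpp3 in the mesothelial-like group, Pla1a in the Fibin type and Slc27a3 in the subepithelial group.

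Within the villus group Lpl was uneven. The median cell held 4.04 and 4.93 UMIs per 10,000, well below the means. A list of 6 stress genes (Fos, Jun, Egr1, Hspa1a, Hspa1b, Atf3), which tissue digestion can induce, moved with this spread. In villus cells with all 6 of them (178 and 1210 cells) Lpl was at 3.92 and 5.59 UMIs per 10,000. In those with at most 3 (236 and 896 cells) it was at 10.7 and 13.6, a difference of 2.72-fold and 2.44-fold in the same direction in both libraries. After thinning, 43.5% and 49.3% of the former and 71.7% and 75.4% of the latter had a UMI of Lpl. This split was chosen after values were seen, and the part of the stress genes in the level of Lpl was not tested. The 6 genes summed to 67.4 and 88.8 UMIs per 10,000 in the villus group, 104 and 114 in the crypt group, 117 and 120 in the mesothelial-like group, 37.8 and 50.1 in the subepithelial group and 28.6 and 38.9 in the Fibin type. This order of the groups was neither that of Lpl nor its reverse, and what it means for Lpl was not tested.

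In the subepithelial group Lpl stood at 2.53 and 3.11 UMIs per 10,000 in Wif1+ cells and at 4.07 and 5.70 in Wif1- cells, which is 1.61-fold and 1.83-fold higher without Wif1. Adamts18+ cells, only 18 in 10X library 1 and 178 in 10X library 2, held 5.36 and 6.76, against 3.32 and 4.78 in Adamts18- cells. Cells with Adamts18 were thus the nearest of the subepithelial cells to the villus level, and remained below it in both libraries.

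**Figure D2:**
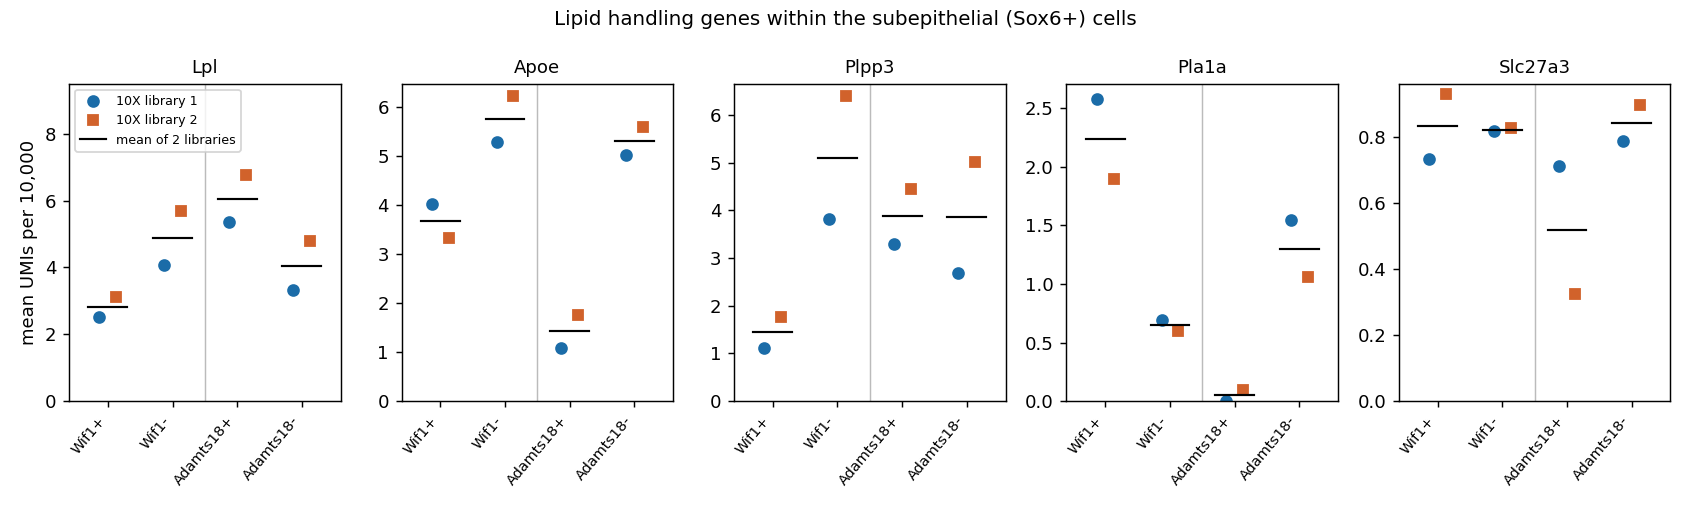
Mean UMIs per 10,000 of the 5 genes (vertical axis, starting at 0) in subepithelial cells with and without Wif1 and with and without Adamts18 (horizontal axis), with 1 point per library and a line at their mean. Wif1- cells are higher for Plpp3 (3.81 and 6.40 against 1.12 and 1.77) and lower for Pla1a, and Slc27a3 differs little between them.

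Lpl and Grem1, the BMP antagonist that separates crypt from villus in the gate, were compared further in splits chosen after values were seen. Crypt cells with no UMI of Fgfr2 held 1.49 and 1.87 Lpl UMIs per 10,000, and crypt cells with both genes held 3.70 and 4.68. The villus level was 4.77-fold and 4.72-fold that of the first of these. In the mesothelial-like group, cells without Grem1 (91 and 434 cells) held 9.38 and 8.55, and those with it (240 and 673 cells) 1.03 and 2.51. The Grem1- cells of the mesothelial-like group thus held 9.09-fold and 3.40-fold more Lpl, above the villus level in 10X library 1 and near it in 10X library 2. In the subepithelial group the Grem1+ cells (14 and 465 cells) held 2.75 and 4.35 and the Grem1- cells 3.49 and 5.02, also lower with Grem1. In the Fibin type, whose share of cells with Lpl was not above the interval of the unclassed glia-marked cells, the values were 1.25 and 1.71 in Grem1+ cells and 0.603 and 1.02 in Grem1- cells.

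Apoe, on chromosome 7 (19696109 to 19699188, minus strand), was highest in the crypt group, not in the villus group. Crypt cells held 8.69 UMIs per 10,000 in 10X library 1 and 9.73 in 10X library 2. Mesothelial-like cells held 8.00 and 6.91, villus cells 5.99 and 6.64, subepithelial cells 4.78 and 5.33, and the Fibin type 1.16 and 2.24. No neighbours in this order of the groups as gated overlapped between libraries. The place of the mesothelial-like group depends on its Grem1+ cells. Its Grem1- cells, which include all its cells of a single class, held 2.91 and 2.93, below the villus and subepithelial levels. Crypt was 1.45-fold and 1.47-fold above villus (mean log2 difference of 0.54 ± 0.011, SD, n = 2 libraries), and 7.47-fold and 4.35-fold above the Fibin type. Among cells of a single class the last ratio was 44.2 and 10.1, or 21.2 in place of 5.70 as the geometric mean, so that its size differed widely between the libraries. Crypt cells held 50.7% and 48.0% of the Apoe UMIs of their libraries. After thinning, 62.9% and 67.8% of crypt cells, 53.0% and 58.6% of villus cells and 13% and 21.1% of the Fibin type had a UMI. Of the 8 epithelial-marked cells of 10X library 2 (median 12124 UMIs), 3 had a UMI of Apoe, too few to set a background.

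Apoe was higher in cells with Grem1 within each of the other gates as well. In the mesothelial-like group Grem1+ cells held 9.93 and 9.48 UMIs per 10,000 and Grem1- cells 2.91 and 2.93, a ratio of 3.41 and 3.24. In the Fibin type the values were 2.33 and 3.69 against 0.209 and 1.28. In the subepithelial group they were 6.12 and 6.67 against 4.71 and 5.06. Mesothelial-like cells with Grem1 thus held more Apoe and less Lpl than those without it, in both libraries. Within the crypt group Apoe was near the same level with and without Fgfr2, at 8.48 and 8.92 with it and 8.83 and 10.4 without it. In the villus group it was higher in cells with all 6 stress genes (6.89 and 7.87) than in those with at most 3 (4.59 and 5.26), by 1.5-fold in each library, a direction opposite to that of Lpl.

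**Figure D3:**
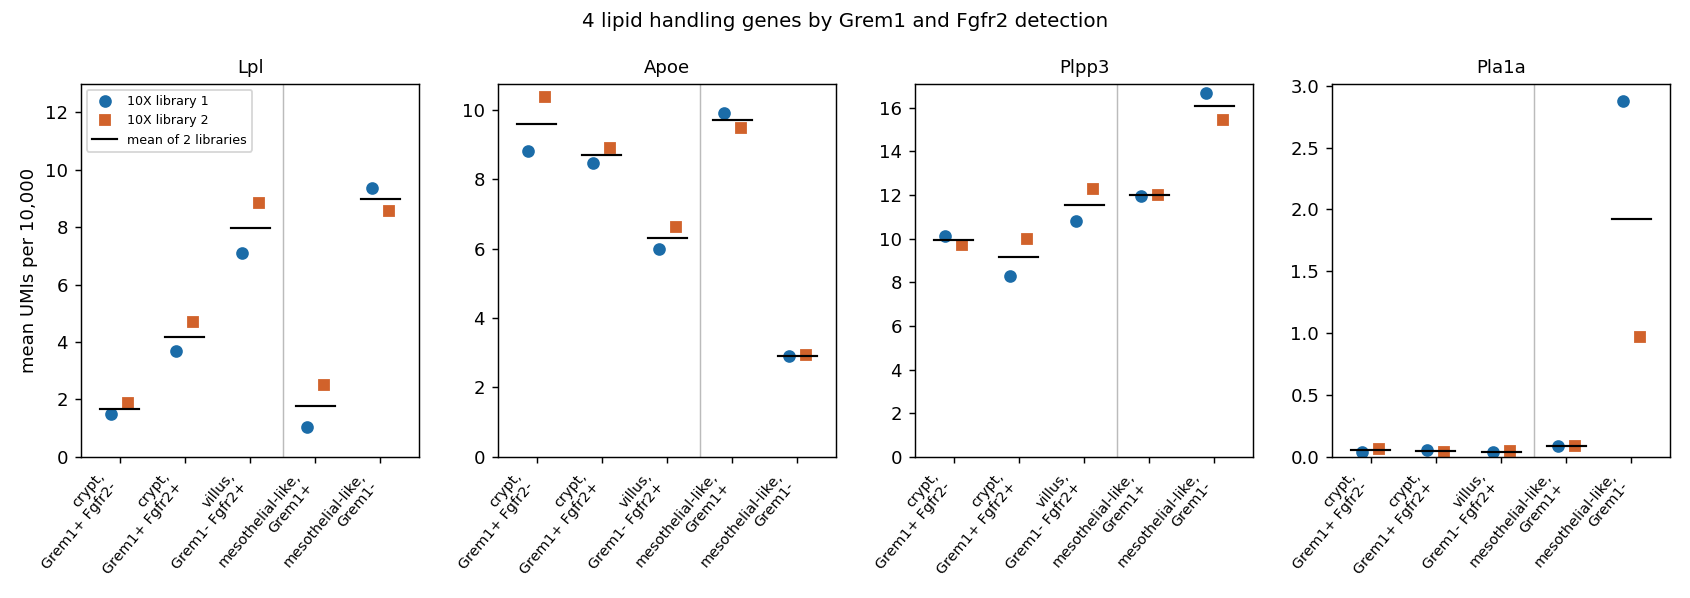
Mean UMIs per 10,000 of Lpl, Apoe, Plpp3 and Pla1a (vertical axis, starting at 0) in crypt cells without and with Fgfr2, villus cells and mesothelial-like cells with and without Grem1 (horizontal axis), with 1 point per library and a line at their mean. In the mesothelial-like group Lpl is at 1.03 and 2.51 with Grem1 and 9.38 and 8.55 without it, and Apoe at 9.93 and 9.48 with Grem1 and 2.91 and 2.93 without it.

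The highest Apoe levels lay outside the fibroblasts. Cells with 3 or more of 7 enteric glia markers held 155 UMIs per 10,000 in 10X library 1 (4 cells) and 54.6 in 10X library 2 (125 cells, all with a UMI). Cells with 3 or more immune markers held 71.9 (9 cells) and 23.8 (78 cells, 56.4% with a UMI). Glia and macrophages are known to make apolipoprotein E. Glia-marked cells were far above every fibroblast group in both libraries. The mean of the immune-marked cells of 10X library 1 rests on few cells, 2 of which, both unclassed, stood at 292. Of the glia-marked cells, 1 and 62 had a UMI of Sox6 and were therefore in the subepithelial group, at 166 and 48.1. The gate takes any cell with Sox6, whatever its other markers.

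Without glia-marked cells the subepithelial group stood at 4.21 and 4.33 Apoe UMIs per 10,000, in place of 4.78 and 5.33. Crypt was then 2.06-fold and 2.25-fold above it, in place of 1.82-fold in each library. Wif1- cells, which held 60 of the 62 glia-marked cells of 10X library 2, had 5.28 and 6.21 against 4.02 and 3.32 in Wif1+ cells. Without glia-marked cells Wif1- had 4.33 and 4.81, and the ratio moved from 1.31 and 1.87 to 1.08 and 1.45. Adamts18+ cells were the lowest in Apoe among the subepithelial cells, at 1.08 and 1.76 against 5.02 and 5.59 in Adamts18- cells. They stayed lower without glia-marked cells, by 4.08-fold and 2.57-fold.

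**Figure D4:**
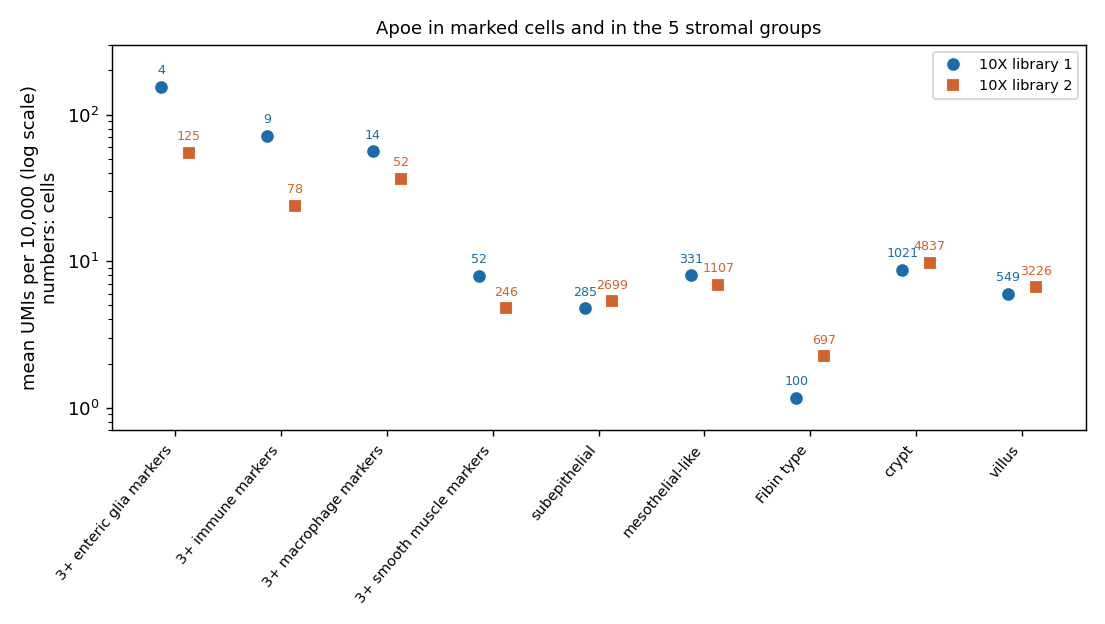
Mean Apoe UMIs per 10,000 (vertical axis, log scale) in cells with 3 or more markers of enteric glia, immune cells, macrophages or smooth muscle and in the 5 groups (horizontal axis), with 1 point per library and the number of cells beside it. Glia-marked cells, at 155 and 54.6, and immune-marked cells, at 71.9 and 23.8, lie above the fibroblast groups, of which crypt at 8.69 and 9.73 is the highest.

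Plpp3, on chromosome 4 (105157347 to 105232764, plus strand), was found in nearly all cells of 3 groups. Mesothelial-like cells held 13.3 UMIs per 10,000 in 10X library 1 and 13.4 in 10X library 2, villus cells 10.8 and 12.3, and crypt cells 9.37 and 9.85. The Fibin type held 3.85 and 4.04 and subepithelial cells 2.73 and 4.99. The first 3 lay close together and far above the last 2, which overlapped. Villus was 3.95-fold and 2.47-fold above subepithelial, 2.81-fold and 3.04-fold above the Fibin type and 1.15-fold and 1.25-fold above crypt. Mesothelial-like cells exceeded villus cells by 1.23-fold and 1.09-fold. After thinning, 81.9% and 83.3% of villus cells had a UMI of Plpp3, against 30.0% and 47.7% of subepithelial cells. The unclassed glia-marked and immune-marked cells of 10X library 2 gave 34% and 14.3% (medians 2870 and 4309 UMIs), or 21.4% and 2.38% after thinning, below the thinned shares of all 5 groups.

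Among subepithelial cells Plpp3 followed Wif1. Wif1+ cells held 1.12 and 1.77 UMIs per 10,000, below every group of the gate, and Wif1- cells held 3.81 and 6.40, which is 3.42-fold and 3.62-fold more. The split by Adamts18 gave no common direction, with 3.29 and 4.46 in Adamts18+ cells and 2.70 and 5.02 in Adamts18- cells, which include the Wif1+ cells. Cells with neither Wif1 nor Adamts18 and without glia-marked cells held 3.89 and 6.71, and Adamts18+ cells were at 0.847 and 0.664 of that level. In the mesothelial-like group Plpp3 was 1.4-fold and 1.29-fold higher without Grem1, at 16.7 and 15.5 against 12 in each library. This was a far smaller step than those of Lpl and Apoe between the same cells.

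Pla1a, on chromosome 16 (38396117 to 38433145, minus strand), was concentrated in the Fibin type and the subepithelial group. The Fibin type held 3.28 UMIs per 10,000 in 10X library 1 and 2.60 in 10X library 2. Subepithelial cells held 1.45 and 0.993. Mesothelial-like cells held 0.851 and 0.432, crypt cells 0.0458 and 0.0530 and villus cells 0.0406 and 0.0448. A UMI was found in 76.0% and 70.0% of the Fibin type and in 2.73% and 2.42% of villus cells. The unclassed glia-marked and immune-marked cells of 10X library 2 gave 4.26% and 2.04% (medians 2870 and 4309 UMIs) and held 0.159 and 0.158 UMIs per 10,000. The villus and crypt levels were below these. The reference shares rest on so few cells with a UMI that no call on background can be made for either group. Together the Fibin type and the subepithelial group held most of its UMIs, 25% and 28.6% in the former and 44.2% and 52.9% in the latter.

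The Fibin type was 2.27-fold and 2.62-fold above the subepithelial group for Pla1a, but only 1.27-fold and 1.38-fold above its Wif1+ cells. Wif1+ cells held 2.58 and 1.89 UMIs per 10,000 and Wif1- cells 0.692 and 0.600, which is 3.73-fold and 3.15-fold less. Adamts18+ cells held 0 UMIs in the 18 cells of 10X library 1, where an exact 95% interval reaches 18.5% of cells, and 0.0985 per 10,000 in 10X library 2, with 7.30% of cells. Adamts18- cells held 1.54 and 1.06. Pla1a and Plpp3 thus ran in opposite directions across Wif1. In 10X library 2 the Pla1a level of Adamts18+ cells was below that of the unclassed marked cells. Their share of cells with a UMI was above that of the marked cells, at a greater depth (median 8630 UMIs). In the mesothelial-like group Pla1a was at 2.88 and 0.970 in Grem1- cells and at 0.0839 and 0.0856 in Grem1+ cells. Cells with Grem1 there, with a UMI in 4.17% and 4.31%, held less per 10,000 than the unclassed marked cells, a reference of few cells.

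Slc27a3, on chromosome 3 (90385239 to 90389938, minus strand), was concentrated in the subepithelial group. Subepithelial cells held 0.782 UMIs per 10,000 in 10X library 1 and 0.857 in 10X library 2. They accounted for 53.7% and 63.5% of all UMIs of the gene. Villus cells held 0.122 and 0.144, crypt cells 0.0943 and 0.141, mesothelial-like cells 0.0486 and 0.116 and the Fibin type 0.0151 and 0.0515. The 4 groups below the subepithelial group overlapped one with the next in this order. Subepithelial cells were 6.39-fold and 5.95-fold above villus cells. A UMI was found in 46.0% and 43.7% of subepithelial cells, or 13.8% and 15.4% after thinning. In villus cells it was 10.6% and 8.96%, or 2.41% and 2.98% after thinning. Of the unclassed glia-marked cells of 10X library 2, 2.13% had a UMI (0.0254 UMIs per 10,000), and of the 49 unclassed immune-marked cells 0 had one (exact 95% interval up to 7.25%). After thinning both were at 0, with exact 95% intervals that reach 12.3% and 8.41%. The villus level was above theirs and its thinned share within those intervals, so the number of reference cells does not allow a call on background for it.

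Unlike Pla1a and Plpp3, Slc27a3 did not separate the subepithelial cells by Wif1. Wif1+ cells held 0.732 and 0.930 UMIs per 10,000 and Wif1- cells 0.816 and 0.825, so the direction differed between the libraries. For Adamts18 it was the same in both libraries but unequal in size, with 0.712 and 0.323 in Adamts18+ cells and 0.787 and 0.894 in Adamts18- cells. The first of these values rests on 18 cells.

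Co-detection was read with each cell thinned to 2000 UMIs, beside the product of the 2 single shares, the share expected of genes that occur independently of each other in the cells of that group. In villus cells Lpl and Plpp3 were found together in 50.2% and 52.3% of cells, against products of 47.7% and 50.6%. Lpl and Apoe were together in 28.7% and 34.2%, which is 0.929 and 0.961 of the product. Lpl, Apoe and Plpp3 were all found in 25.6% and 29.6% of villus cells, 10.2% and 17.1% of crypt cells, 9.54% and 13.6% of subepithelial cells, 8.87% and 14.4% of mesothelial-like cells and 4% and 3.23% of the Fibin type. The villus group therefore held the largest share of cells with all 3 among the 5 groups, with Lpl and Plpp3, and Lpl and Apoe, close to the products of their shares. Of the Fibin type, 21% and 23.2% of cells held none of the 5 genes, and of the villus group 4.26% and 2.64%.

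The mesothelial-like group was the one where pairs stood farthest from the product. Lpl with Pla1a was found in 3.28 and 1.91 times the share of the product, and Apoe with Pla1a in 0.126 and 0.428 times. Lpl with Apoe was at 0.681 and 0.794 times. In the same group Lpl and Pla1a were higher without Grem1 and Apoe with it. In subepithelial cells Plpp3 and Pla1a met less often than the product, at 0.820 and 0.603 times, and Pla1a with Slc27a3 was at 0.893 and 1.15 times, on different sides of the product in the 2 libraries.

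Across 6 groups (the 5 groups with the subepithelial cells split by Wif1) the mean values of Apoe and Pla1a ran opposite to each other, with Pearson's r of -0.82 in 10X library 1 and -0.92 in 10X library 2. For Plpp3 and Pla1a r was -0.78 and -0.88, and for Plpp3 and Slc27a3 -0.74 and -0.68. Apoe and Plpp3 had r of 0.54 and 0.70. For the pairs with Lpl r lay between -0.58 and 0.51. Apoe with Slc27a3 was near 0, at 0.00497 and -0.11, and Pla1a with Slc27a3 was at 0.22 and 0.31. Each r is a description over 6 points that share a library, and the libraries share the gate.

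Of 1879 genes compared in the same way, those most like Lpl were Lrat, which esterifies retinol for storage (r of 0.95 and 0.92), Serpinb1a, an inhibitor of neutrophil proteases (0.90 and 0.94), and Ldha, a subunit of lactate dehydrogenase (0.91 and 0.87). Lrat stood at 5.49 and 4.72 UMIs per 10,000 in villus cells and 5.24 and 3.52 in Wif1- subepithelial cells. Lrat is one of the villus markers used for checking the gate. Those most like Apoe were Plvap (0.96 and 0.93), Crip1 (0.99 and 0.93) and Tnfaip2 (0.93 and 0.92). Those most like Plpp3 were Ndrg2 (0.98 and 0.98), the collagen gene Col3a1 (0.93 and 0.97) and the sialyltransferase gene St6gal1 (0.93 and 0.97). For Pla1a they were Spire1 (0.98 and 0.99), the matricellular gene Smoc2 (1.00 and 0.98) and Tmem204 (0.97 and 0.98), and for Slc27a3 Tmem132e (0.99 and 1.00), Palmd (0.99 and 0.99) and the calcium channel subunit gene Cacna2d3 (0.99 and 0.99). Some of these genes were barely detected. In no group and library did Plvap exceed 0.175 UMIs per 10,000, St6gal1 0.127 or Cacna2d3 0.0748. By Spearman's rho, of these genes only Lrat and Spire1 reached the third highest value for their member. With ties, 6 genes did so for Lpl and 7 for Pla1a.

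Other lipid genes were taken from a list of 163 genes by role, leaving out the 5 genes and the gate genes, and 83 of them were rows of the table. The list was chosen with earlier results of these data known. Its p values, and its shares beside those of all genes, are therefore a description and no independent evidence. The mean natural log value of each library and group was compared between groups with limma, blocked by library, with Benjamini-Hochberg adjustment over all genes tested. Differences are on the natural log scale of 1 + UMIs per 10,000, and SDs are over n = 2 libraries. Because nothing states that the libraries came from separate mice, the p values measure only the spread between 2 libraries, which may be technical. The groups were cut by measured values of the gate genes, and comparisons with the villus group share its cells.

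Between villus and crypt, 24.7% of 1849 genes passed an adjusted p of 0.05, and of 52 list genes 9 did (17.3%). Of these 2 were higher and 7 lower in villus, against 10.3% and 14.3% of all genes tested. The median difference was -0.0048 over the list and 0.0024 over all genes tested. The genes that were higher belonged to prostanoid signalling, a role in which 2 of the 7 genes tested were higher and 2 lower. Ptgs1, the constitutive cyclooxygenase, stood at 1.04 and 1.08 UMIs per 10,000 in villus and 0.314 and 0.375 in crypt cells, a difference of 0.319 ± 0.038 (higher in 2 of 2 libraries, limma adjusted p = 0.000667, range over 7 alternatives 0.00015 to 0.00351). Ptger2, a receptor for prostaglandin E, was higher by 0.111 ± 0.0028 (limma adjusted p = 0.00267, range 0.00077 to 0.011). Vldlr, a lipoprotein receptor that binds Apoe, was at 0.381 and 0.386 in villus and 1.11 and 1.10 in crypt cells (limma adjusted p = 0.00358, range 0.00113 to 0.0179), and so was lower in villus in 2 of 2 libraries. Cyp1b1, a monooxygenase of steroids and fatty acids (limma adjusted p = 0.0173, range 0.00973 to 0.0735), and Hpgd, which inactivates prostaglandins (0.0426, range 0.0159 to 0.137), were lower too, and passed in 5 and 4 of the 7 alternatives. None of the 6 lipases and lipase partners tested passed.

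Between subepithelial and villus cells the background was higher, with 50.4% of 1849 genes past the test. Of the 52 list genes 24 passed (46.2%). Of these 18 were higher and 6 lower in subepithelial cells, against 32.6% and 17.8% of all genes tested. Cav1, the main protein of caveolae, stood at 2.79 and 2.52 UMIs per 10,000 against 0.0844 and 0.141 in villus cells, a difference of 0.933 ± 0.075 (2 of 2 libraries, limma adjusted p = 2.85e-06, range 7e-07 to 8.99e-05). Rbp4, the carrier of retinol in blood, was at 2.95 and 2.71 against 0.0781 and 0.152 (limma adjusted p = 2.72e-07, range 2.05e-07 to 5.98e-06). Hacd4, of very long chain fatty acid synthesis, was higher by 0.907 ± 0.149 (limma adjusted p = 1.1e-05, range 1.72e-06 to 0.000268). Of the 9 genes of sterol metabolism tested, 6 were higher in subepithelial cells. Ces1d was lower, with a difference of -0.679 ± 0.017 (0.522 and 1.27 against 2.95 and 4.43 in villus cells, limma adjusted p = 0.0131, range 0.0071 to 0.0497). It is a carboxylesterase of triglyceride breakdown in a cluster of closely related genes, between which the counting may have split or lost reads. Ptges, a prostaglandin E synthase, was lower, with a difference of -0.278 ± 0.055 (limma adjusted p = 0.000571, range 0.000115 to 0.00293), and G0s2, an inhibitor of adipose triglyceride lipase, passed in only 3 of 7 alternatives (limma adjusted p = 0.0477, range 0.0234 to 0.22).

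The Fibin type differed most from villus in lipid genes, as it did over all genes. Of the 52 list genes 33 passed (63.5%, against 57.3% of 1849 genes). Among them 22 were higher and 11 lower in the Fibin type, against 28.7% of all genes tested in each direction. Ces1d stood at 24.0 and 17.3 UMIs per 10,000 against 2.95 and 4.43, a difference of 1.59 ± 0.44 (2 of 2 libraries, limma adjusted p = 0.000137, range 0.000104 to 0.00169). Pla2g7, which breaks down platelet-activating factor, was at 3.45 and 2.47 against 0.0545 and 0.0287 (limma adjusted p = 1.03e-05, range 5.11e-06 to 0.00029). Ptgis, the prostacyclin synthase, was at 3.41 and 3.47 against 1.23 and 1.12 (limma adjusted p = 9.96e-06, range 7.88e-06 to 8.56e-05). The prostaglandin genes Ptges and Ptgs1 were lower than in villus cells, with differences of -0.429 ± 0.085 and -0.403 ± 0.021 (limma adjusted p = 4.42e-05 and 1.46e-05). Cyp1b1 differed by -0.263 ± 0.086 and passed in 5 of 7 alternatives (limma adjusted p = 0.0266, range 0.0175 to 0.0793). Fabp5, a fatty acid binding protein named here after its values were seen, was at 1.89 and 3.28 in the Fibin type and 0.0284 and 0.0357 in villus cells. The group with the least Lpl, Apoe and Slc27a3 thus had more list genes higher than lower against villus.

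Mesothelial-like cells differed from villus cells in 22 of the 52 list genes (42.3%, against 43.5% of 1849 genes). Among them 17 were higher and 5 lower, against 25.4% and 18.1% of all genes tested. Vldlr was at 2.0 and 1.64 UMIs per 10,000 against 0.381 and 0.386, a difference of 0.593 ± 0.109 (2 of 2 libraries, limma adjusted p = 5.13e-05, range 3.41e-05 to 0.000606). Hpgd and Cyp1b1 were higher by 0.37 ± 0.060 and 0.336 ± 0.135 (limma adjusted p = 0.00816 and 0.012). Ptgs1 was at 0.121 and 0.232 against 1.04 and 1.08 (limma adjusted p = 3.32e-05, range 1.83e-05 to 0.000255). Ptger2 and the phosphatidate phosphatase gene Lpin2 were lower, with differences of -0.163 ± 0.0016 and -0.105 ± 0.022 (limma adjusted p = 0.000128 and 0.00984). Ptgs1 was thus higher in villus than in crypt, Fibin type and mesothelial-like cells, and it was higher still in subepithelial cells, at 2.07 and 2.31 (limma adjusted p = 1.1e-05 against villus).

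**Figure D5:**
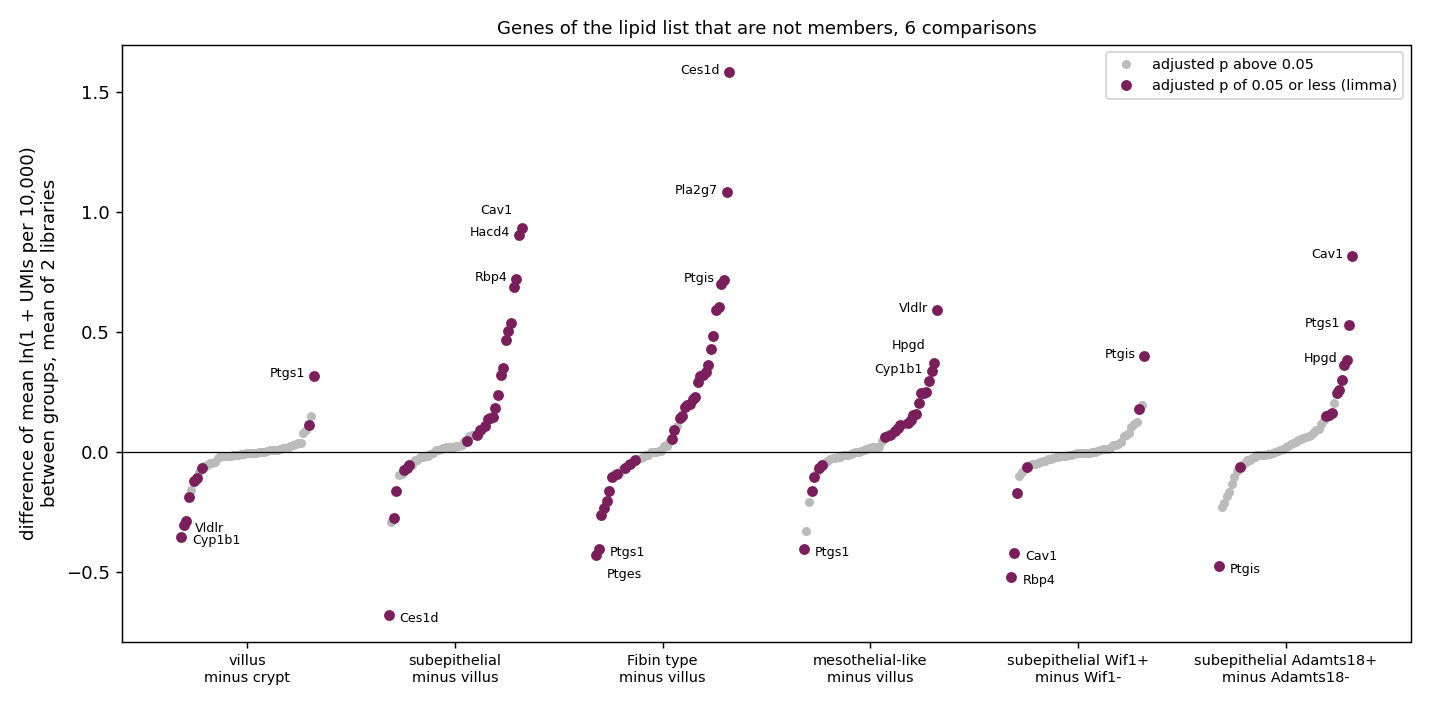
Difference of the mean natural log of 1 + UMIs per 10,000 between 2 groups (vertical axis, mean of 2 libraries) for each tested gene of the lipid list that is not 1 of the 5 members, in 6 comparisons (horizontal axis, genes sorted by value within each). Dark points passed a limma adjusted p of 0.05, and Ces1d in the Fibin type, at 1.59 above villus, is the farthest from 0.

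Within the subepithelial group 6 of 52 list genes (11.5%, against 17.8% of 1897 genes) differed between Wif1+ and Wif1- cells. Of these 2 were higher and 4 lower with Wif1, against 11% and 6.75% of all genes tested. Ptgis was higher, at 4.16 and 4.22 UMIs per 10,000 against 2.90 and 2.71 (difference 0.401 ± 0.091, 2 of 2 libraries, limma adjusted p = 0.000889, range 0.000746 to 0.00415), and Srebf1, a transcription factor of lipid synthesis, by 0.181 ± 0.073 (limma adjusted p = 0.0191, range 0.0111 to 0.0491). Rbp4 was lower, at 1.01 and 1.46 against 4.25 and 3.25 (limma adjusted p = 0.000144, range 2.23e-05 to 0.00171), as was Cav1, at 1.58 and 1.66 against 3.60 and 2.90 (limma adjusted p = 0.00129, range 0.000248 to 0.00937). Ptges was lower, with a difference of -0.17 ± 0.0089 (limma adjusted p = 0.0105, range 0.00961 to 0.0278). Between Adamts18+ and Adamts18- cells 12 of 53 list genes differed (22.6%, against 22.5% of 1903 genes). Among them 10 were higher and 2 lower with Adamts18, against 12% and 10.5% of all genes tested. Cav1 was at 6.04 and 5.16 against 2.58 and 2.33 (limma adjusted p = 9.47e-05, range 3.98e-05 to 0.00114), Ptgs1 at 3.71 and 3.97 against 1.96 and 2.19 (limma adjusted p = 3.49e-05, range 2.25e-05 to 0.000167). Hpgd was higher by 0.384 ± 0.102 and passed in 6 of 7 alternatives (limma adjusted p = 0.0126, range 0.0113 to 0.0619). Ptgis was lower, with a difference of -0.477 ± 0.062 (limma adjusted p = 0.000427, range 0.000312 to 0.00289), and so was Apol6, with -0.062 ± 0.031 (limma adjusted p = 0.00408, range 0.0038 to 0.0251).

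Known partners of the 5 genes were looked at after these values were seen. Gpihbp1, which anchors Lpl to capillary endothelium, had 14 UMIs in all 10X cells of this CD31- sort. Angptl4, an inhibitor of Lpl, was low everywhere, at 0.114 and 0.150 UMIs per 10,000 in villus cells and 0.116 and 0.114 in crypt cells, and did not pass between them (limma adjusted p = 0.679). Mesothelial-like cells held 0.239 and 0.111 of it. The Fibin type held 0.0333 and 0.0457, and there Angptl4 passed as lower than in villus cells. Cd36, a receptor for fatty acids, had 160 UMIs in all. Enpp2, which makes the lysophosphatidic acid that Plpp3 breaks down, was at 0.366 and 0.522 in mesothelial-like cells, the group with the most Plpp3, and lower in villus cells (limma adjusted p = 0.000725).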

How the data were processed

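The deposited table holds natural log values. Per the study's methods, the authors aligned 10X reads with Cell Ranger (3.1.0 per their processing notes), filtered cells and genes in Seurat, scaled each cell to its total UMIs and took the natural log. A scale of 10,000, the usual Seurat setting, was assumed here. In the 10X cells 100% of values above 0 were whole multiples of the cell's smallest value (tolerance 0.01), which gave back the UMIs. The Smartseq2 values, corrected by the authors' integration, were not used. One row that ends early was left out.

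The 5 genes, the gate and the gene lists were chosen with earlier results of these data known. Levels are means over cells of UMIs per 10,000 in each library, shares carry exact (Clopper-Pearson) 95% intervals, which cover counting error only, and thinning to 2000 UMIs (seed 7) left out shallower cells (62 of 10X library 1 and 311 of 10X library 2). Doublets were not called. Leaving out the 5% of cells with the highest totals served as an alternative. Genes tested were above 0 in at least 5% of cells of any group of the fit in both libraries, and groups had at least 10 cells. The 5 groups were in 1 fit, and each split of the subepithelial group had its own fit with the other groups. Library means were tested with limma 3.58.1 (R 4.3.3, mean trend, library as block, Benjamini-Hochberg adjustment). This was tested on simulated data. The library as a block is given by the design, since every group was read in the same 2 libraries.

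The genes named are the 5 members, the 3 genes most like each by Pearson's r (the lower of the 2 libraries), and at most 3 list genes per direction and comparison of largest difference past an adjusted p of 0.05 with the same sign in both libraries. Others are marked as named after their values were seen. Alternatives were no block, no filter, a filter of 10%, no mean trend, summed UMIs, gate genes at 2 UMIs, and leaving out shallow cells, high totals, cells of another type, cells of several classes or each library. Coordinates are of GENCODE M21 (GRCm38). Scripts ran under Python 3.11.15 with scipy 1.17.1, pandas 2.3.3, numpy 2.4.6 and matplotlib 3.10.9.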

Additional observations from a re-analysis of the deposited data

Results flagged for a closer look

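Apoe was high in 10X cells of other types that fell in none of the 5 groups and entered no test between groups. They are part of the marked cells described with the levels of Apoe. In 10X library 2, the 47 unclassed cells with 3 or more enteric glia markers held 70.1 Apoe UMIs per 10,000 and 100% of them had a UMI (exact 95% interval from 92.5%). The 49 unclassed cells with 3 or more immune markers held 24.5, and 40.8% had a UMI (27.0% to 55.8%). All unclassed cells together held 9.39 and 8.96 in the 2 libraries. Groups of 2 libraries are too small for a check of single samples that stand apart.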

How the results depend on the processing

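Of 25 level ratios under the alternatives other than leaving out a library (150 values), 111 moved by less than the spread between libraries, 35 by more, and 4 reversed. With gate genes at 2 UMIs, Lpl in villus over crypt went from 2.88 to 3.70, Apoe in crypt over villus from 1.46 to 1.53, Pla1a in Wif1+ over Wif1- cells from 3.43 to 2.94 and Slc27a3 in subepithelial over villus cells from 6.17 to 5.74. With cells of a single class only, Lpl gave 4.74 and Apoe 1.52. With summed UMIs Apoe gave 1.55 and Slc27a3 5.39. Apoe gave 1.49 without cells of another type and 1.43 without the highest totals. Slc27a3 in Wif1+ over Wif1- cells, 1.01, reversed to 0.891 with summed UMIs, 0.981 without cells of another type, 0.877 with gate genes at 2 UMIs and 0.998 with single-class cells, and gave 0.897 to 1.13 with 1 library left out. With 1 library left out these ratios spanned 2.82 to 2.95 (Lpl), 1.45 to 1.47 (Apoe), 3.15 to 3.73 (Pla1a), 2.47 to 3.95 (Plpp3, villus over subepithelial, 3.12 with both) and 5.95 to 6.39 (Slc27a3). With single-class cells Lpl in mesothelial-like over crypt cells went from 1.47 to 5.52. The cause was not tested.

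Without the replicate block, limma called 356, 809, 976, 713, 260 and 349 genes, in place of 456, 932, 1060, 805, 337 and 428, for villus against crypt, subepithelial, Fibin type and mesothelial-like against villus, and the splits by Wif1 and Adamts18. All 42 alternative counts were within 1.5 times the reported ones. With 1 library left out limma has no residual degrees of freedom and gave no count. Depth and the few reference cells limit what can be said of Pla1a in villus and crypt cells. The same few cells limit what can be said of Slc27a3 in villus cells.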
